A study of Nicotiana tabacum with 12 samples.

Results

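Plants take up inorganic nitrogen as nitrate or ammonium. Nitrate reductase turns nitrate into nitrite in the cytosol, nitrite reductase turns nitrite into ammonium in the chloroplast, and glutamine synthetase and glutamate synthase then fix ammonium into glutamine and glutamate. Leaves carry out much of this work, because reduced ferredoxin and carbon skeletons from photosynthesis feed it, and leaf glutamine synthetase also captures the ammonium that photorespiration releases. The genes described here are those whose domain description in the deposited table names nitrate, nitrite, an ammonium transporter, glutamine synthetase or glutamate synthase. They number 66 of 69500 genes. By role they are 6 genes of nitrate transport, 2 nitrate reductases, 7 nitrite and sulphite reductases, 21 ammonium transporters, 19 glutamine synthetases and 5 glutamate synthases. The 6 others carry a matching word without belonging to the pathway and are described apart.

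RNA was sequenced from leaves of tobacco (Nicotiana tabacum) at the seedling stage, in 4 groups of 3 libraries: a knockout labelled Q18, an overexpression line labelled YOE, wild type K326 and wild type KY. The study asked how NtCISZOG, an enzyme of the type that attaches glucose to the cytokinin cis-zeatin, acts on leaf chlorophyll. The design text names the mutants K326-gk-8 and KY-OE-31, whose names begin with those of the wild types, but the sample labels give no parent for Q18 or YOE. Q18 was therefore set against K326, and YOE against KY. K326 was added as a second reference for YOE, because earlier results of these data showed YOE libraries close to K326 at genes silent in KY. With the parent of YOE unstated, its differences from either wild type cannot be told apart from differences between the wild types. The promoter of the overexpression construct, the number of independent lines and the number of plants behind a library are unstated in the labels, and the targeted gene itself is not analysed here. No label ties replicates to different plants, and the p-values therefore reflect spread among libraries that may be only technical.

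The deposited values were treated as TPM, a length-corrected transcript level, although they summed to between 334759 and 676862 per library. As deposited, the median log2 difference over all tested genes was 0.24 for Q18 minus K326, -0.11 for YOE minus KY, -0.51 for YOE minus K326 and 0.39 for K326 minus KY. Libraries were therefore brought to a common scale by the median of their gene-wise ratios to the average library, and levels below are scaled TPM unless named as deposited. Differences are log2(scaled TPM + 1) with their standard error, tested with limma over 31064 genes. A gene is called at a Benjamini-Hochberg adjusted p of 0.05 or less. In leaf tissue, fewer cells of a type and less RNA per cell cannot be told apart.

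Of the 66 genes, 42 passed the filter of at least 1 scaled TPM in at least 3 libraries. Of the 24 that did not, 11 were listed at 0 in every library, 8 of them ammonium transporters. Of the 13 others, glutamine synthetase Nitab4.5_0003388g0010 stood apart, with 0.388, 9.73 and 0 in the YOE libraries and 0 in every other library, while the rest stayed below 1 in every library. Because a gene can pass the filter through the group where it is high, the counts below describe the tested genes only.

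YOE differed from KY at 27 of the 42 tested genes, 11 higher and 16 lower, against 35% of all tested genes called in that comparison (17.7% higher and 17.3% lower). Of the 36 pathway genes among the 42, 21 were called there, 7 higher and 14 lower. On the values as deposited YOE differed from KY at 19 of the 42, with 2 higher and 17 lower, against 18.3% of all genes. Against K326, YOE differed at 11, of which 1 was higher and 10 were lower, with 10.3% of all tested genes called (5.59% higher and 4.73% lower). K326 differed from KY at 21, with 9 higher and 12 lower, and 25.2% of all tested genes were called there (12.3% higher and 13% lower). Q18 differed from K326 at none of the 42 genes by limma. At an unadjusted limma p under 0.05 there were 2 of the 42, against 2104 of all 31064 tested genes. By adjusted p, 0.0129% of all tested genes were called (0% higher and 0.0129% lower). The median log2 difference of the 42 genes was -0.22 for YOE minus KY, against -0.01 for all genes, and -0.14 for YOE minus K326, against -0.02. For K326 minus KY it was -0.03, against 0.02, and for Q18 minus K326 it was -0.01, against 0.02. For the 36 pathway genes alone the medians were -0.25, -0.29, -0.08 and -0.02 in that order of comparisons. These comparisons share libraries, so their counts are not independent of each other.

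The levels fell into different orders by role, which the plot of summed levels shows. Summed nitrate reductase averaged 113 ± 8.63 in Q18, 74.1 ± 9.16 in YOE, 123 ± 9.08 in K326 and 250.3 ± 23.6 in KY (SD, n = 3 each, as for all means below). Summed ammonium transporters averaged 234 ± 9.43 in Q18, 133 ± 21.4 in YOE, 247 ± 14.3 in K326 and 279.8 ± 21.9 in KY. YOE was the lowest group in both sums and did not overlap any other group. Summed glutamate synthase averaged 126 ± 21.7 in Q18, 121 ± 4.46 in YOE, 115 ± 4.07 in K326 and 212 ± 10.8 in KY. Summed glutamine synthetase averaged 559.6 ± 99.5 in Q18, 589 ± 125 in YOE, 568 ± 79.0 in K326 and 886 ± 138 in KY. In both of these sums KY lay above the other groups, and Q18, YOE and K326 overlapped. As deposited KY was no longer the highest, since summed glutamine synthetase averaged 737 in Q18 and 680 in KY, and summed glutamate synthase averaged 167 in Q18 and 164 in KY. On the scaled values KY also lay above the other groups in the nitrite and sulphite reductases. They averaged 81.3 ± 12.5 in Q18, 89.2 ± 2.08 in YOE, 94.6 ± 14.5 in K326 and 147 ± 18.8 in KY. As deposited they averaged 113 in KY, 108 in Q18 and 103 in K326, and the KY libraries overlapped those of Q18 and K326.

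**Figure D1:**
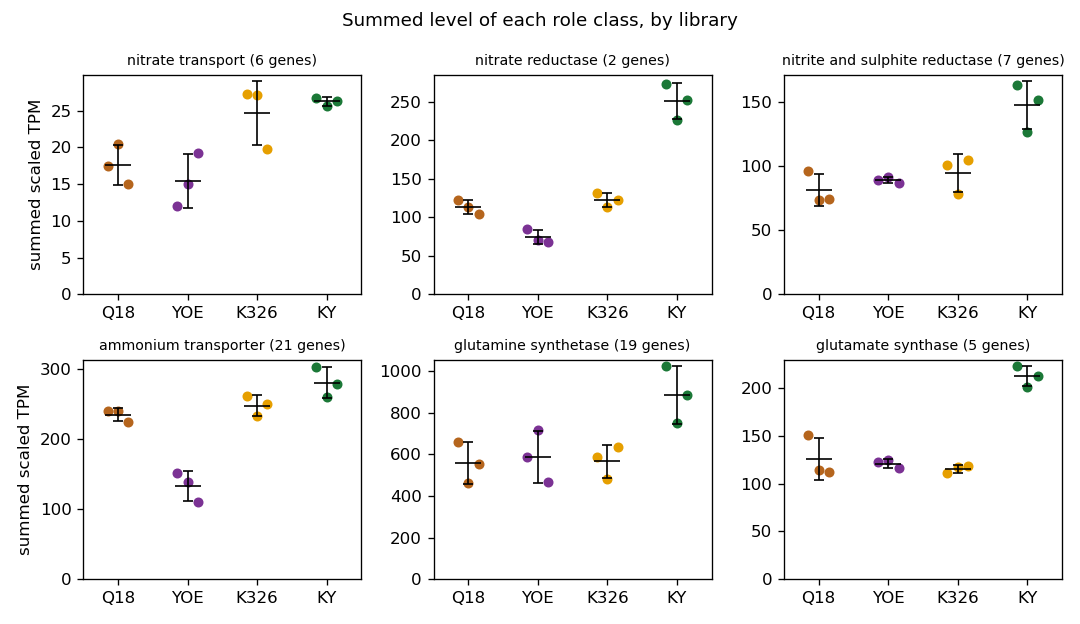
Summed scaled TPM of all genes of each role class in each of the 12 libraries (points), with the group mean and SD (bar and whiskers), in linear axes that start at 0. On this scale KY is highest for nitrate reductase, nitrite and sulphite reductase, glutamine synthetase and glutamate synthase. As deposited, Q18 averages above KY in the last pair, and KY overlaps Q18 and K326 in the nitrite and sulphite reductases. YOE is lowest for nitrate reductase and the ammonium transporters.

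Both nitrate reductase genes, whose molybdenum enzyme catalyses the committed step of nitrate use, were lower in YOE than in either wild type. Nitab4.5_0023821g0010 had 78.6, 76.5 and 67.0 scaled TPM in Q18 and 53.2, 42.7 and 41.4 in YOE, against 80.6, 73.8 and 78.3 in K326 and 170.2, 143 and 158 in KY. Nitab4.5_0002857g0010 had 43.2, 36.3 and 37.5 in Q18 and 31.3, 27.8 and 25.8 in YOE, against 51.4, 40.01 and 44.1 in K326 and 103, 83.3 and 93.7 in KY. For both genes every YOE library was below every K326 and Q18 library, and every KY library was above all others. YOE therefore stood at 29.2% and 30.4% of the KY mean and at 59.001% and 62.7% of the K326 mean. In limma, Nitab4.5_0023821g0010 differed by -1.76 ± 0.13 in YOE minus KY (adjusted p = 5.2e-06), by -0.76 ± 0.13 in YOE minus K326 (adjusted p = 0.00937) and by -1.005 ± 0.13 in K326 minus KY (adjusted p = 0.000404). The second gene, Nitab4.5_0002857g0010, differed by -1.68 ± 0.14 (adjusted p = 9.46e-06), -0.65 ± 0.14 (adjusted p = 0.0158) and -1.03 ± 0.14 (adjusted p = 0.000405) in those comparisons. Q18 minus K326 was -0.07 and -0.20 for Nitab4.5_0023821g0010 and Nitab4.5_0002857g0010, with 95% intervals of -0.36 to 0.22 and -0.50 to 0.09. The call of Nitab4.5_0002857g0010 in YOE minus K326 was lost without YOE replicate 2 or without K326 replicate 3 (adjusted p up to 0.056). On the values as deposited the calls in K326 minus KY were lost (adjusted p = 0.101 and 0.0602). Copies of 1 family may share reads that the quantification splits between them, so levels of single copies here and below are less certain than their sums.

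Among the 6 genes matched here as nitrate transport, a pair held over 98.6% of their summed level in every library. The larger family of peptide and nitrate transporters is counted apart below. Nitab4.5_0008037g0060 encodes a Nar2-type accessory protein, the partner that high-affinity nitrate transporters need at the membrane, and was lower in YOE. It had 14.6, 15.5 and 13.2 in Q18 and 10.7, 12.97 and 16.7 in YOE, against 24.4, 20.5 and 16.6 in K326 and 26.6, 25.3 and 26.0 in KY. YOE lay below KY without overlap and met K326 only at their nearest libraries, 16.7 and 16.6. The difference was -0.92 ± 0.17 in YOE minus KY (adjusted p = 0.00173) and -0.58 ± 0.17 in YOE minus K326 (adjusted p = 0.0485). That last call was lost without any 1 of YOE replicates 1 and 2 and K326 replicates 1, 2 and 3 (adjusted p up to 0.134). Q18 minus K326 was -0.46 ± 0.17 for this gene, with every Q18 library below every K326 library, at an unadjusted p of 0.0169 and an adjusted p of 0.596. Nitab4.5_0002255g0010, a transporter of the major facilitator superfamily, was nearly silent in KY. It had 2.74, 4.9 and 1.83 in Q18 and 1.31, 1.92 and 2.28 in YOE, against 2.72, 6.55 and 3.09 in K326 and 0.15, 0.353 and 0.245 in KY. All 9 libraries of the other groups were above every KY library. It was higher in YOE minus KY (1.17 ± 0.30, adjusted p = 0.0108) and in K326 minus KY (1.96 ± 0.30, adjusted p = 0.00105), on a log2 scale that understates changes of such low genes. As deposited, the first of these was not called (adjusted p = 0.115). YOE minus K326 was -0.79 for Nitab4.5_0002255g0010, with a 95% interval of -1.44 to -0.14 and an adjusted p of 0.111.

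Ammonium transporters move ammonium across the cell's membranes and, in leaves, also retrieve what leaks out of cells. Of 9 tested genes, 5 were lower and 1 higher in YOE than in KY, 4 were lower and 0 higher in YOE than in K326, and 1 was higher in K326 than in KY. These calls were 66.7%, 44.4% and 11.1% of the 9, against 35%, 10.3% and 25.2% of all tested genes. The copy with the highest level, Nitab4.5_0003474g0010, had 82.5, 86.3 and 70.4 in Q18 and 55.9, 51.6 and 39.6 in YOE, against 89.1, 88.3 and 72.2 in K326 and 90.4, 84.4 and 87.3 in KY. Nitab4.5_0002937g0040 had 33.4, 41.7 and 37.1 in Q18 and 21.5, 17.6 and 12.2 in YOE, against 35.6, 33.7 and 33.7 in K326 and 38.7, 36.8 and 37.2 in KY. Nitab4.5_0000841g0070 had 37.0, 47.3 and 43.9 in Q18 and 13.1, 5.37 and 4.61 in YOE, against 35.5, 28.1 and 35.2 in K326 and 33.4, 28.8 and 35.3 in KY. At these 3 genes every YOE library was below all 9 others, while K326 and KY overlapped at Nitab4.5_0003474g0010 and Nitab4.5_0000841g0070 and K326 lay just below KY at Nitab4.5_0002937g0040.

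The difference was largest of these 3 at Nitab4.5_0000841g0070, where YOE stood at 23.6% of KY (-2.07 ± 0.28, adjusted p = 0.000347) and at 23.3% of K326 (-2.09 ± 0.28, adjusted p = 0.00456). Nitab4.5_0002937g0040 stood at 45.5% of KY (-1.13 ± 0.17, adjusted p = 0.000588) and at 49.8% of K326 (-0.999 ± 0.17, adjusted p = 0.00858). Nitab4.5_0003474g0010 stood at 56.1% of KY (-0.83 ± 0.15, adjusted p = 0.00173) and at 58.98% of K326 (-0.76 ± 0.15, adjusted p = 0.0134). All 3 kept these calls with any 1 library left out and under each scaling. With only the compared libraries in the limma fit, their YOE minus K326 calls were lost (adjusted p = 0.064, 0.0792 and 0.0966 in that order). For K326 minus KY the 95% intervals of these genes were -0.60 to 0.63, -0.50 to 0.24 and -0.41 to 0.25, and for Q18 minus K326 they were -0.25 to 0.98, -0.26 to 0.49 and -0.39 to 0.27.

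A further pair of ammonium transporters was lower in YOE than in KY. Nitab4.5_0005734g0020 had 37.3, 19.1 and 32.6 in Q18 and 24.6, 21.9 and 10.1 in YOE, against 44.8, 33.0 and 59.1 in K326 and 85.0, 59.97 and 67.9 in KY. Nitab4.5_0002600g0010 had 16.9, 8.62 and 12.4 in Q18 and 12.1, 11.9 and 4.07 in YOE, against 21.1, 15.9 and 24.8 in K326 and 36.3, 27.1 and 30.9 in KY. At both genes YOE lay below K326, K326 lay below KY, and Q18 overlapped YOE. The difference of K326 minus KY was not called (adjusted p = 0.184 for Nitab4.5_0005734g0020 and 0.233 for Nitab4.5_0002600g0010), and as deposited these wild types overlapped at both genes (adjusted p = 0.649 and 0.747). YOE minus KY was -1.93 ± 0.34 (adjusted p = 0.00157) for Nitab4.5_0005734g0020 and -1.76 ± 0.35 (adjusted p = 0.00303) for Nitab4.5_0002600g0010. Against K326, YOE minus K326 was -1.28 ± 0.34 at Nitab4.5_0005734g0020 (adjusted p = 0.0382). This call was lost without any 1 of YOE replicates 2 and 3 and K326 replicates 1, 2 and 3 (adjusted p up to 0.131). For Nitab4.5_0002600g0010 it was -1.16 ± 0.35 (adjusted p = 0.0567), which passed without YOE replicate 1 (adjusted p = 0.0278), as deposited and with the sum and quantile scalings. Nitab4.5_0008594g0010 went the other way, with 15.2, 16.1 and 27.1 in YOE and 12.96, 8.94 and 11.8 in KY. Its difference of 0.71 ± 0.24 (adjusted p = 0.0384) was lost without YOE replicate 3 or any 1 KY library (adjusted p up to 0.129), as deposited (adjusted p = 0.253) and with quantile normalization (adjusted p = 0.055). Nitab4.5_0000444g0190 had 9.63, 9.88 and 7.80 in K326 and 3.14, 7.68 and 4.45 in KY (0.79 ± 0.25, adjusted p = 0.038), a call lost without any 1 K326 library, KY replicate 1 or KY replicate 3 (adjusted p up to 0.15). The 12 ammonium transporters that were not tested reached at most 0.0692 in any library.

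**Figure D2:**
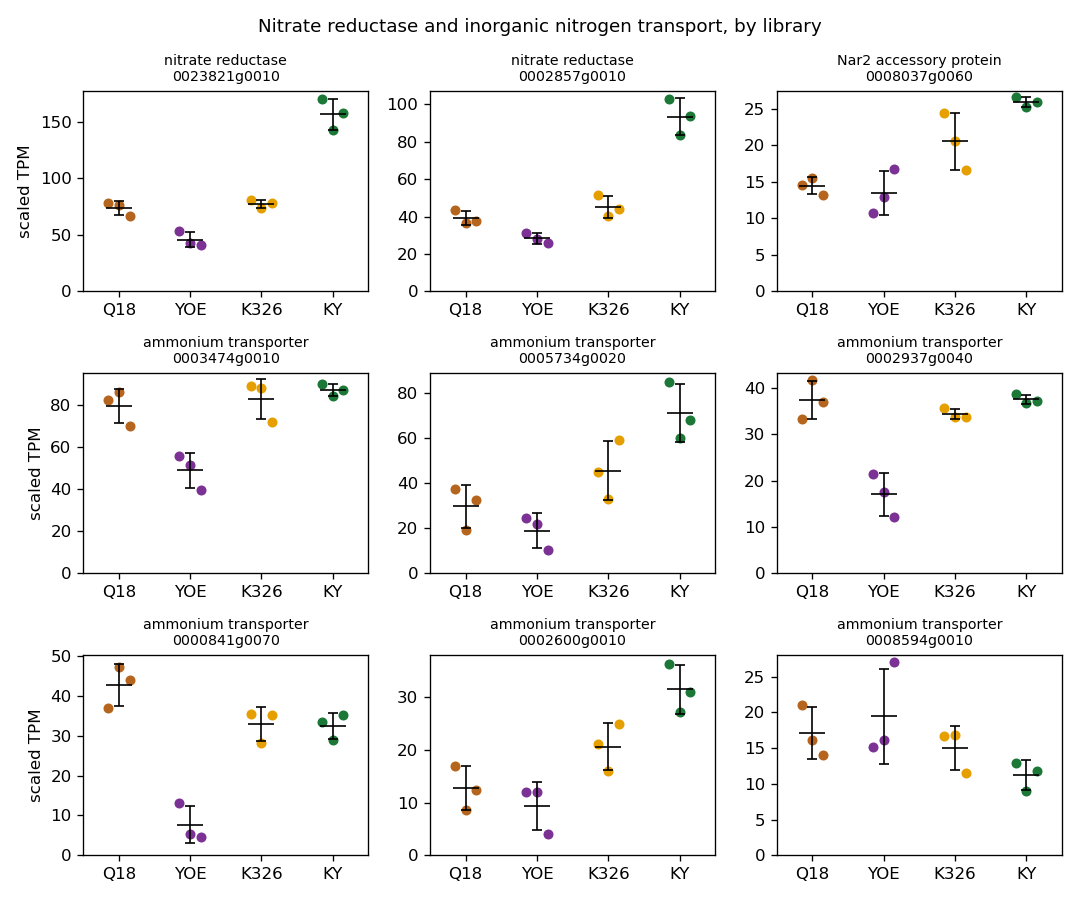
Scaled TPM of both nitrate reductases, the Nar2 accessory protein and 6 ammonium transporters in each library (points) with group means and SD, in linear axes that start at 0. YOE lies below all other groups at both nitrate reductases and at ammonium transporters Nitab4.5_0003474g0010, Nitab4.5_0002937g0040 and Nitab4.5_0000841g0070, and KY lies above all others at both nitrate reductases.

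The nitrite and sulphite reductases share a siroheme and iron-sulphur centre, and their descriptions do not separate nitrite reductase from its sulphite-reducing relatives except where a ferredoxin-dependent sulphite reductase is named. Against KY, 3 of the 5 tested genes were lower and 0 higher in YOE, and 3 were lower and 1 higher in K326. The shares of all tested genes called in these comparisons were 35% and 25.2%. The highest, Nitab4.5_0018347g0010, had 31.8, 26.5 and 25.2 in Q18 and 27.4, 32.4 and 31.6 in YOE, against 34.9, 25.3 and 38.2 in K326 and 59.1, 47.7 and 59.1 in KY. Nitab4.5_0005249g0010 had 24.5, 16.1 and 18.1 in Q18 and 22.6, 26.1 and 18.6 in YOE, against 27.0, 17.6 and 25.3 in K326 and 53.6, 37.7 and 45.7 in KY. At both genes every KY library was above the 9 others, which overlapped. YOE minus KY was -0.84 ± 0.16 (adjusted p = 0.00285) for Nitab4.5_0018347g0010 and -0.99 ± 0.21 (adjusted p = 0.00404) for Nitab4.5_0005249g0010. K326 minus KY was -0.75 ± 0.16 (adjusted p = 0.00805) and -0.95 ± 0.21 (adjusted p = 0.00806), and both of these calls were lost as deposited (adjusted p = 0.354 and 0.0914). For YOE minus K326 the 95% intervals were -0.45 to 0.27 and -0.50 to 0.41 on the scaled values.

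Of the remaining genes of this class, Nitab4.5_0004741g0010, described as a ferredoxin-dependent sulphite reductase, also had every KY library above the 9 others. It had 16.3, 13.1 and 13.3 in Q18 and 17.4, 14.9 and 15.4 in YOE, against 16.8, 14.3 and 17.9 in K326 and 25.4, 19.5 and 21.8 in KY. It was lower in YOE minus KY (-0.46 ± 0.14, adjusted p = 0.0224) and in K326 minus KY (-0.42 ± 0.14, adjusted p = 0.0407). The YOE call was lost without YOE replicate 2 or 3 or KY replicate 1 or 3 (adjusted p up to 0.0947) and as deposited (adjusted p = 0.072). The K326 call was lost without K326 replicate 1 or 2 or KY replicate 1 or 3 (adjusted p up to 0.161). It was also lost with the sum scaling (limma adjusted p = 0.261), quantile normalization (0.0513), no filter (0.0581) and only the compared libraries (0.0508). As deposited, K326 minus KY was 0.05 for this gene, with an adjusted p of 0.871. Nitab4.5_0002741g0060, with the same sulphite reductase description, averaged 18.7 ± 2.35 in YOE, 18.3 ± 1.22 in K326 and 22.2 ± 2.495 in KY and was called in no comparison. A low copy, Nitab4.5_0000876g0100, had 3.07, 3.74 and 3.88 in Q18 and 1.97, 1.90 and 1.48 in YOE, against 4.03, 3.73 and 3.82 in K326 and 1.31, 2.43 and 2.04 in KY. Here the Q18 and K326 libraries were all above the YOE and KY libraries. The difference was -0.81 ± 0.15 in YOE minus K326 (adjusted p = 0.0106) and 0.75 ± 0.15 in K326 minus KY (adjusted p = 0.00485).

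Glutamine synthetase, which joins ammonium to glutamate, exists in plants as a chloroplast form and several cytosolic forms that the domain descriptions do not tell apart. A pair of copies carried most of the level. Nitab4.5_0000059g0010 and Nitab4.5_0003070g0010 together made up 72.3% ± 9.99 of the summed level in Q18, 85.1% ± 5.89 in YOE, 73.6% ± 6.83 in K326 and 90.7% ± 2.59 in KY. Nitab4.5_0000059g0010 had 253, 129.9 and 213 in Q18 and 248, 339 and 187 in YOE, against 221, 155 and 249 in K326 and 508, 344 and 427 in KY. Nitab4.5_0003070g0010 had 271, 151 and 213 in Q18 and 249.98, 313 and 183 in YOE, against 225, 162 and 252 in K326 and 447, 315 and 375 in KY. KY lay above the other groups at both, narrowly so against the highest YOE library. Replicate 2 was the lowest library of Q18, of K326 and of KY at both genes, and the highest of YOE.

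K326 minus KY was -1.04 ± 0.30 (adjusted p = 0.0255) for Nitab4.5_0000059g0010 and -0.84 ± 0.27 (adjusted p = 0.0405) for Nitab4.5_0003070g0010. Both calls were lost without K326 replicate 1 or 2 or KY replicate 1 or 3 (adjusted p up to 0.101 and 0.149) and as deposited (adjusted p = 0.0714 and 0.219). With quantile normalization the call of Nitab4.5_0003070g0010 was also lost (adjusted p = 0.0934). YOE minus KY was -0.75 ± 0.30 (adjusted p = 0.0705) and -0.63 ± 0.27 (adjusted p = 0.0904), neither of them called, while as deposited both were (adjusted p = 0.00724 and 0.0137). Without YOE replicate 2 the first of them was called (adjusted p = 0.0395). Their description also holds an AWPM-19-like domain, which the other glutamine synthetase genes shown here do not have in theirs.

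A pair of copies of intermediate level had another order, with Q18 and K326 high and YOE and KY low. Nitab4.5_0001650g0160 had 48.2, 66.7 and 51.4 in Q18 and 33.1, 18.5 and 33.3 in YOE, against 49.9, 64.6 and 52.0 in K326 and 21.7, 28.5 and 25.5 in KY. Nitab4.5_0009806g0020 had 46.7, 64.4 and 39.7 in Q18 and 26.5, 13.7 and 22.0 in YOE, against 51.4, 54.3 and 40.2 in K326 and 21.6, 25.5 and 25.7 in KY. At both genes all Q18 and K326 libraries were above all YOE and KY libraries, and YOE and KY overlapped. YOE minus K326 was -0.99 ± 0.22 (adjusted p = 0.0209) for Nitab4.5_0001650g0160 and -1.23 ± 0.24 (adjusted p = 0.0121) for Nitab4.5_0009806g0020. K326 minus KY was 1.11 ± 0.22 (adjusted p = 0.00509) and 0.97 ± 0.24 (adjusted p = 0.0132). The first YOE call was lost without YOE replicate 2, K326 replicate 2 or K326 replicate 3 (adjusted p up to 0.074), and the K326 call of Nitab4.5_0009806g0020 without K326 replicate 2 or KY replicate 1 (adjusted p up to 0.0563). YOE minus KY had 95% intervals of -0.37 to 0.61 and -0.78 to 0.26. Other copies of intermediate level did not separate the groups in this way. The means of Nitab4.5_0000777g0010 had the same order, at 11.4 in Q18, 7.17 in YOE, 13.7 in K326 and 5.62 in KY. Its libraries had 10.2, 15.2 and 8.89 in Q18, 11.7, 15.3 and 14.3 in K326 and 4.19, 7.69 and 4.97 in KY. At this gene YOE spread from 2.75 to 11.7 and overlapped each of the other groups. Its K326 minus KY difference of 1.18 ± 0.37 (adjusted p = 0.0395) was lost without any 1 K326 library, KY replicate 1 or KY replicate 3 (adjusted p up to 0.137). Nitab4.5_0010543g0010, at 8.09 ± 2.28 in YOE, 13.6 ± 2.04 in K326 and 12.2 ± 3.22 in KY, was not called (adjusted p = 0.0726 for YOE minus K326).

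Among low copies of glutamine synthetase, Nitab4.5_0009686g0030 was nearly silent in KY. It averaged 3.36 ± 0.924 in Q18, 2.25 ± 0.207 in YOE, 3.51 ± 0.568 in K326 and 0.059 ± 0.0614 in KY, and was higher in YOE minus KY (1.62 ± 0.16, adjusted p = 4.52e-05) and in K326 minus KY (2.08 ± 0.16, adjusted p = 7.42e-06). Nitab4.5_0005208g0050 went the opposite way, at 1.77 ± 0.256 in YOE, 2.04 ± 0.448 in K326 and 5.13 ± 0.726 in KY (-1.14 ± 0.15, adjusted p = 0.00024 for YOE minus KY, and -1.01 ± 0.15, adjusted p = 0.000797 for K326 minus KY). Both of these kept their calls with any 1 library left out. Nitab4.5_0000132g0480, whose description joins an amidohydrolase domain to the synthetase domain as that of Nitab4.5_0005208g0050 does, averaged 2.06 ± 0.320 in YOE, 2.86 ± 0.136 in K326 and 1.36 ± 0.173 in KY. It was higher in K326 minus KY (0.71 ± 0.12, adjusted p = 0.00175) and in YOE minus KY (0.38 ± 0.12, adjusted p = 0.0287). The YOE call was lost without YOE replicate 1 or 2 or KY replicate 1 or 3 (adjusted p up to 0.109) and as deposited (adjusted p = 0.474). Nitab4.5_0003945g0150 averaged 1.17 ± 0.412 in YOE and 0.536 ± 0.144 in KY (0.48 ± 0.15, adjusted p = 0.0256), a call lost without YOE replicate 1 or 3 or KY replicate 1 or 2 (adjusted p up to 0.0894) and as deposited (adjusted p = 0.222). The glutamine synthetase nearest to a call in Q18 minus K326 was Nitab4.5_0007727g0010, at 1.75 ± 0.132 in Q18 and 0.444 ± 0.188 in K326 (0.93, 95% interval 0.02 to 1.85, adjusted p = 0.733).

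Glutamate synthase passes the amide nitrogen of glutamine to 2-oxoglutarate, and leaves hold mainly a ferredoxin-dependent form beside a minor form that uses NADH. The level lay in a pair of copies, which held between 92.8% and 98.7% of the summed level over all libraries. Nitab4.5_0002936g0040 had 89.6, 64.8 and 66.4 in Q18 and 72.6, 72.7 and 62.6 in YOE, against 68.0, 66.9 and 70.7 in K326 and 135, 121 and 128 in KY. Nitab4.5_0000415g0090 had 55.9, 44.2 and 42.6 in Q18 and 44.2, 44.8 and 45.0 in YOE, against 39.0, 45.6 and 43.9 in K326 and 85.4, 76.8 and 81.5 in KY. At both genes every KY library was above the 9 others, among which Q18 replicate 1 was the highest. YOE stood at 54.2% and 55.0% of KY (-0.88 ± 0.14, adjusted p = 0.000807, and -0.85 ± 0.12, adjusted p = 0.000498). K326 stood at 53.6% and 52.7% of KY (-0.89 ± 0.14, adjusted p = 0.00126, and -0.91 ± 0.12, adjusted p = 0.000519). As deposited, the K326 minus KY calls were lost (-0.40, adjusted p = 0.167 for Nitab4.5_0002936g0040 and -0.42, adjusted p = 0.184 for Nitab4.5_0000415g0090). YOE minus K326 had 95% intervals of -0.29 to 0.32 and -0.21 to 0.33 on the scaled values.

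The minor glutamate synthase copies had other orders. Nitab4.5_0002492g0040, whose description adds an NAD(P)-binding domain, had 1.21, 1.19 and 1.01 in Q18 and 1.99, 3.06 and 4.38 in YOE, against 0.845, 1.08 and 1.13 in K326 and 0.844, 1.40 and 1.16 in KY. All 3 YOE libraries were above the 9 others. It was higher in YOE minus K326 (1.00 ± 0.19, adjusted p = 0.0111) and in YOE minus KY (0.93 ± 0.19, adjusted p = 0.00332). It was the 1 tested gene of the 42 called higher in YOE than in K326, although as deposited that difference was 0.56 with an adjusted p of 0.0721. Nitab4.5_0000714g0080 averaged 3.22 ± 0.141 in YOE and 1.97 ± 0.388 in KY (0.51 ± 0.15, adjusted p = 0.0205), a call lost without KY replicate 3 (adjusted p = 0.0875) and as deposited (adjusted p = 0.331).

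**Figure D3:**
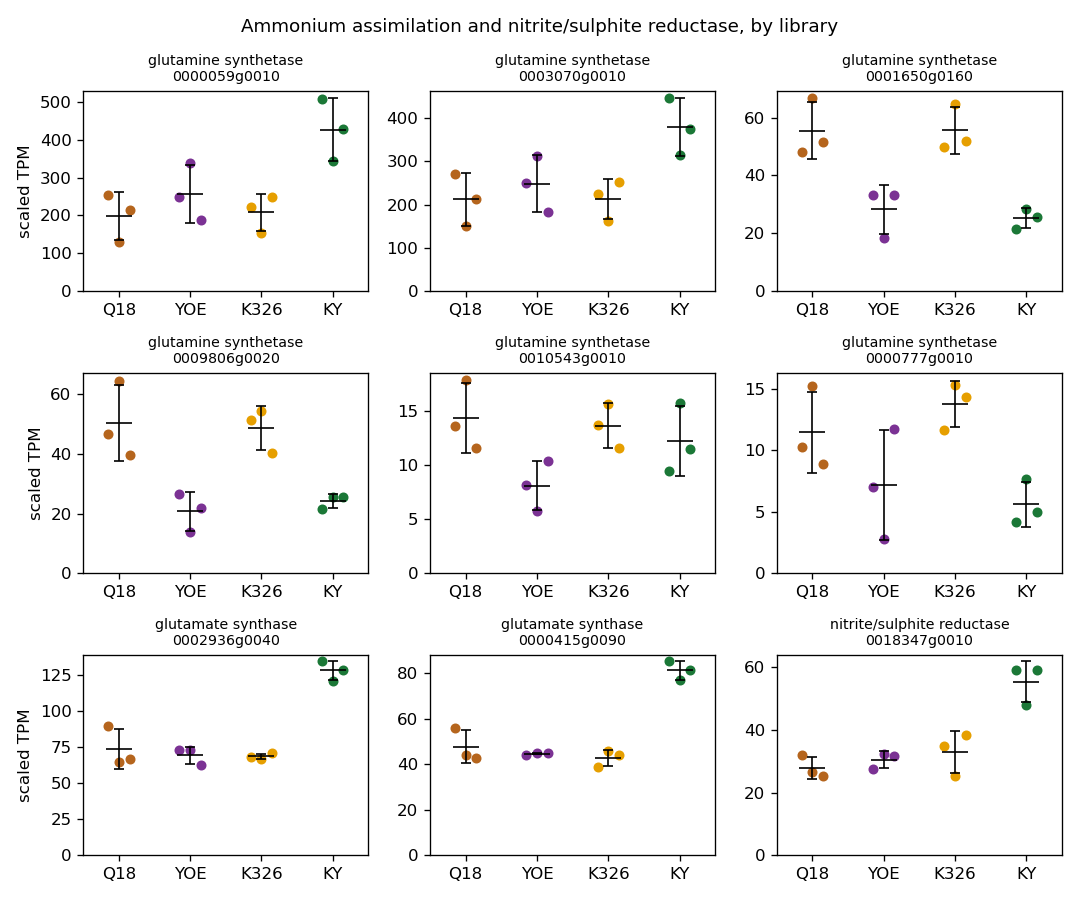
Scaled TPM of 6 glutamine synthetases, both main glutamate synthases and the highest nitrite or sulphite reductase in each library (points) with group means and SD, in linear axes that start at 0. KY lies above the other groups at glutamine synthetases Nitab4.5_0000059g0010 and Nitab4.5_0003070g0010, both glutamate synthases and the reductase, while Q18 and K326 lie above YOE and KY at glutamine synthetases Nitab4.5_0001650g0160 and Nitab4.5_0009806g0020.

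The log2 differences of the 36 tested pathway genes are drawn together in the plot of intervals. In Q18 minus K326, the 36 differences ran from -0.69 at ammonium transporter Nitab4.5_0002600g0010 to 0.93 at glutamine synthetase Nitab4.5_0007727g0010, and 34 of the 95% intervals included 0. The other tested comparisons had 21 calls for YOE minus KY (7 higher, 14 lower), 11 for YOE minus K326 (1 higher, 10 lower) and 18 for K326 minus KY (8 higher, 10 lower) among these 36. The shares of all tested genes called in these comparisons were 35%, 10.3% and 25.2%. As deposited, all 26 calls among the 42 genes in YOE minus K326 were lower, with 38.8% of all genes called, and K326 minus KY had 11 higher and 2 lower. Fitted on the 6 libraries of YOE and K326 alone, limma called 0 of the 42 genes in YOE minus K326 and 0.325% of all genes. At an unadjusted p under 0.05 that fit had 20 of the 42, against 6457 of all 31064 tested genes. The adjusted p of the 11 genes was then between 0.0615 and 0.187. As deposited, 0.0192% of all genes were called in Q18 minus K326 and 27% in K326 minus KY. With libraries scaled to the same sum, 8.43% were called in YOE minus K326 and 23.3% in K326 minus KY, and with a mean of at least 5, 44.6% in YOE minus KY. With the replicate number as a block, the shares were 0% for Q18 minus K326, 34.1% for YOE minus KY, 8.75% for YOE minus K326 and 24.4% for K326 minus KY.

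**Figure D4:**
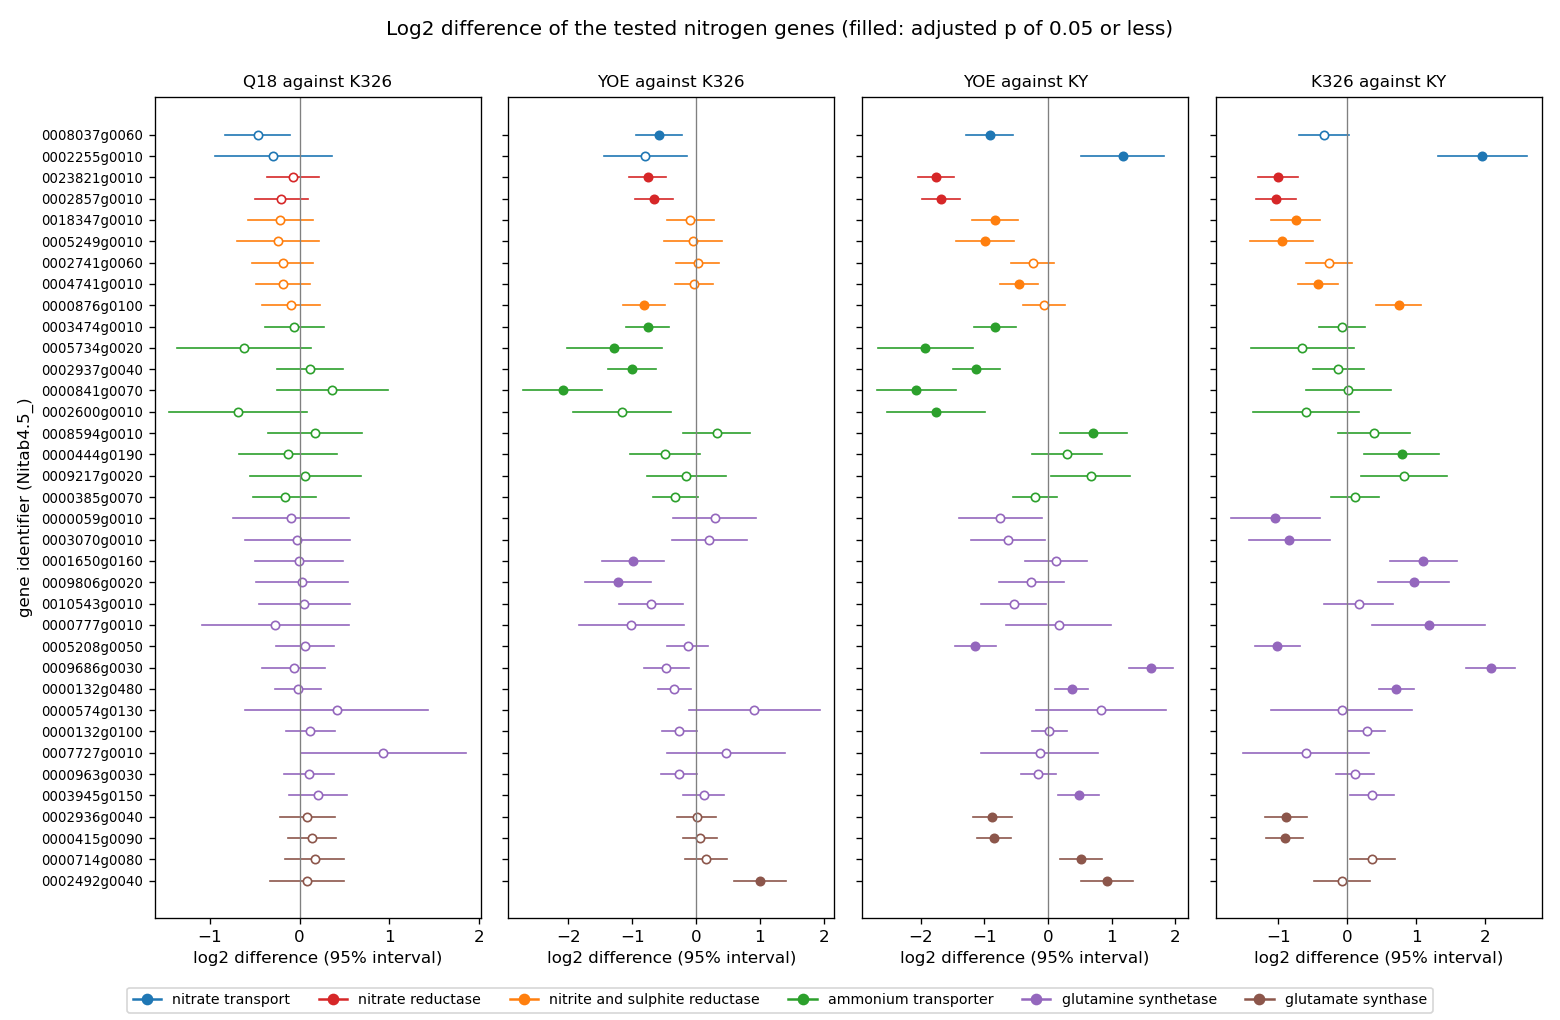
Log2 difference (log2(scaled TPM + 1), x axis) with its 95% interval from limma for the 36 tested genes of the pathway, in 4 comparisons, with colours for role classes and filled points for an adjusted p of 0.05 or less. Q18 against K326 has no filled point, and YOE against K326 has 10 filled points below 0 and 1 above.

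The 6 genes matched by wording alone were 3 folylpolyglutamate synthases, which lengthen the glutamate tail of folates, 2 coatomer alpha subunits and a Topless-type corepressor. All 6 were called in YOE minus KY, where 35% of all tested genes were called. Folylpolyglutamate synthases Nitab4.5_0000647g0200 (11.2 ± 1.40 in YOE, 20.05 ± 1.95 in KY) and Nitab4.5_0001618g0320 (1.21 ± 0.361 in YOE, 3.39 ± 0.0452 in KY) were lower (adjusted p = 0.00113 and 0.000198). The third of that family, Nitab4.5_0000826g0240 (1.45 ± 0.0306 in YOE, 0.703 ± 0.191 in KY), was higher (adjusted p = 0.00482), a call lost as deposited (adjusted p = 0.187). The first 2 were also lower, and the third higher, in K326 minus KY (adjusted p = 0.00467, 0.000233 and 0.0187). The K326 call of Nitab4.5_0000826g0240 was lost without K326 replicate 2 or 3 or KY replicate 1 (adjusted p up to 0.0829). That of Nitab4.5_0000647g0200 was lost as deposited (adjusted p = 0.47). The coatomer genes Nitab4.5_0001840g0100 and Nitab4.5_0003674g0060 and the Topless gene Nitab4.5_0003463g0090 were higher in YOE minus KY by 0.56, 0.51 and 0.58 (adjusted p = 0.00662, 0.00535 and 0.0263). The last of these calls was lost without YOE replicate 3, KY replicate 1 or KY replicate 3 (adjusted p up to 0.104), and all 3 were lost as deposited (adjusted p = 0.306, 0.327 and 0.268).

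Genes around the pathway were taken from 13 lists matched on descriptions, with the genes above removed. Over all tested genes, 35% were called in YOE minus KY, 10.3% in YOE minus K326 and 25.2% in K326 minus KY. As deposited these shares were 18.3%, 38.8% and 27%. No list had a call in Q18 minus K326. The peptide and nitrate transporter family, whose members carry nitrate, peptides or hormones, had 75 tested genes, of which 10 were higher and 29 lower in YOE than in KY, 4 higher and 18 lower in YOE than in K326, and 5 higher and 16 lower in K326 than in KY. Their median log2 difference was -0.19 in YOE minus KY and -0.12 in YOE minus K326. As deposited, this family had 2 higher and 22 lower in YOE minus KY and 0 higher and 35 lower in YOE minus K326. In K326 minus KY it then had 16 higher and 4 lower, while scaling each library to the same sum gave 8 higher and 6 lower. One of them, Nitab4.5_0000874g0180, had 24.8, 11.5 and 6.23 in YOE, against 48.2, 42.7 and 49.6 in K326 (-1.85 ± 0.33, adjusted p = 0.0104). RWP-RK proteins include the NIN-like factors that switch on nitrate-response genes. Of 18 tested, 2 were higher and 7 lower in YOE than in KY, and 0 were higher and 2 lower in YOE than in K326 (2 and 5, then 0 and 10 as deposited). Nitab4.5_0011405g0010 of that family had 2.10, 1.36 and 1.00 in YOE, against 3.64, 3.52 and 3.11 in K326 and 10.2, 7.59 and 7.76 in KY, and the groups did not overlap. It differed by -1.95 ± 0.21 in YOE minus KY (adjusted p = 6.97e-05) and by -0.85 ± 0.21 in YOE minus K326 (adjusted p = 0.0266), the second being lost without any 1 of YOE replicates 2 and 3 and the K326 libraries (adjusted p up to 0.0878).

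The molybdenum cofactor list, which holds its synthesis enzymes and other enzymes that bind it, had 50 tested genes. Of these, 1 was higher and 12 lower in YOE than in KY, and 0 higher and 1 lower in YOE than in K326. In K326, 1 was higher and 8 lower than in KY. These calls were smaller shares of the list than the 35%, 10.3% and 25.2% of all tested genes called. As deposited, YOE minus KY had 0 higher and 5 lower, YOE minus K326 had 0 higher and 27 lower, and K326 minus KY had 4 higher and 0 lower. Nitab4.5_0006265g0050, a MoaE-type molybdopterin synthase subunit, had 6.46, 5.27 and 6.13 in YOE and 14.2, 11.5 and 15.04 in KY (-1.06 ± 0.17, adjusted p = 0.000918), without overlap. PII proteins sense nitrogen and carbon status in chloroplasts. Of 5 tested, Nitab4.5_0000363g0020 had 4.84, 4.42 and 5.21 in Q18, 6.63, 7.06 and 2.87 in YOE and 5.14, 4.63 and 4.20 in K326, and was listed at 0 in all KY libraries. It was the 1 gene of that list called in YOE minus KY (adjusted p = 1.6e-05) and in K326 minus KY (adjusted p = 2.6e-05). The siroheme list had 3 tested genes, with 1 higher and 0 lower in YOE than in KY. Against K326, 1 was higher and 1 lower in YOE (as deposited 1 and 0, then 0 and 1). Among the 3 tested genes, Nitab4.5_0006866g0010 is a uroporphyrin-III methyltransferase at the branch from chlorophyll and haem synthesis to siroheme. It had 2.70, 4.38 and 3.99 in YOE, against 1.20, 1.32 and 1.37 in K326 and 1.84, 0.846 and 1.52 in KY. All 3 YOE libraries were above the others, with 1.01 ± 0.18 in YOE minus K326 (adjusted p = 0.01, and 0.0566 as deposited) and 0.97 ± 0.18 in YOE minus KY (adjusted p = 0.0022).

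Genes that handle organic nitrogen after assimilation were called against KY at shares near the 35% of all genes, and most did not pass the test. Of 18 asparagine synthases and asparaginases, 3 were higher and 4 lower in YOE than in KY (2 and 3 as deposited), and 4 were higher and 0 lower in YOE than in K326. The second count turned to 0 higher and 6 lower as deposited and to 1 higher and 2 lower with libraries scaled to the same sum. Asparagine synthase Nitab4.5_0000102g0010, whose product stores and carries nitrogen, had 35.4, 54.8 and 15.9 in YOE and 5.84, 8.03 and 7.53 in KY, without overlap (2.01 ± 0.40, adjusted p = 0.00314). Of 9 glutamate dehydrogenases, which release ammonium from glutamate, 2 were higher and 2 lower in YOE than in KY, and 2 were higher and 1 lower in YOE than in K326 (0 and 1, then 1 and 4 as deposited). Nitab4.5_0007542g0020 of that family had 23.6, 48.5 and 42.9 in YOE, against 15.6, 10.8 and 11.2 in K326 and 19.9, 23.0 and 19.0 in KY. YOE lay above both wild types, by 1.49 ± 0.25 against K326 (adjusted p = 0.0084) and by 0.81 ± 0.25 against KY (adjusted p = 0.0275). The KY call was lost without YOE replicate 2 or 3 or KY replicate 1 or 3 (adjusted p up to 0.0998) and as deposited (adjusted p = 0.0911).

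The other lists are given by counts of higher and lower calls, first in YOE minus KY, then in YOE minus K326. Aminotransferases (10 tested) had 1 and 1, then 1 and 0 (as deposited 0 and 1, then 0 and 4). Enzymes that supply 2-oxoglutarate (12 tested) had 1 and 3, then 0 and 1 (as deposited 0 and 0, then 0 and 7). Genes with ferredoxin in their description (128 tested) had 15 and 19, then 6 and 3 (as deposited 2 and 13, then 4 and 65). The 14-3-3 proteins, which include the factors that bind and hold phosphorylated nitrate reductase inactive, had 27 tested genes with 7 and 0, then 1 and 3, and 8 were higher and 0 lower in K326 than in KY. As deposited, the 14-3-3 counts were 1 and 0, then 0 and 16, with 15 higher and 0 lower in K326 than in KY. Urease, arginase and amino acid transporters (66 tested) had 8 and 18, then 5 and 11 (as deposited 7 and 12, then 1 and 25). The carbamoyl phosphate list (30 tested) had 2 and 6, then 0 and 1 (as deposited 0 and 2, then 0 and 12).

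Marker lists of other cell types and leaf states were read beside these results. Summed phloem genes (60 genes, 38 tested) reached 498, 469 and 602 in Q18 and 685, 1371 and 1528 in YOE, against 421, 394 and 368 in K326 and 625, 525 and 634 in KY. Of the tested ones, 14 were higher and 1 lower in YOE than in K326, and 14 were higher and 3 lower in YOE than in KY. As deposited, YOE minus K326 had 9 higher and 9 lower, and YOE minus KY had 8 higher and 2 lower. Histones and cyclins, which mark dividing cells (193 genes, 109 tested), summed to 2262, 2465 and 1782 in YOE, against 1819, 1663 and 1843 in K326 and 1833, 1779 and 1778 in KY. Of these, 19 were higher and 1 lower in YOE than in K326 (7 and 22 as deposited), and 36 were higher and 11 lower in YOE than in KY (16 and 6 as deposited). Mesophyll genes (90 genes, 82 tested) summed to between 35199 and 62883 in YOE, 32523 and 50210.3 in K326 and 48265 and 70819 in KY, and YOE overlapped both wild types. Of these, 0 were higher and 1 lower in YOE than in K326 (0 and 20 as deposited), 2 higher and 7 lower in YOE than in KY (2 and 17), and 3 higher and 13 lower in K326 than in KY (5 and 4). Senescence genes (44 genes, 26 tested) summed to between 507 and 749 in YOE, 408 and 508 in K326 and 464 and 499 in KY, with 4 higher and 2 lower in YOE than in K326 (1 and 10 as deposited) and 8 higher and 6 lower in YOE than in KY (5 and 6). Heat shock genes (132 genes, 99 tested) summed to between 3762 and 4450.4 in YOE, 3706 and 4215 in K326 and 4790.2 and 5018 in KY, with 2 higher and 10 lower in YOE than in K326 (0 and 53 as deposited) and 7 higher and 26 lower in YOE than in KY (1 and 19). The root endodermis list matched 0 genes. The part of these lists in the results on nitrogen genes was not tested.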

How the data were processed

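One table of 69500 genes by 12 leaf libraries was used. Salmon and StringTie are named, without versions, per the submitters' processing notes. Identifiers carry the prefix Nitab4.5, and no genome build is stated in the labels. The deposited values were taken as TPM, made by the authors. No unit stands in the header, and whether they are FPKM was not tested. TPM keeps no read depth, so no counting intervals are given. Low and near-identical copies are the least certain.

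Genes were matched on the descriptions in the table, with no match of any identifier to RefSeq (0), so no positions or sequences are shown. The members, gene lists and tests were chosen with earlier results of these data known, and 6 matched genes were set apart after their descriptions had been read. Scale factors were medians of ratios to the average library, taken over the 20130 genes that reached 1 in every library (0.516 to 1.509). Genes at 1 or more in at least 3 libraries (31064) were fitted as log2(value + 1) in limma 3.58.1 (R 4.3.3) with trend and robust settings, 4 group means over all 12 libraries, and Benjamini-Hochberg adjustment at 0.05. The fit was also run on simulated data with known changes and independent noise, without shifts between libraries. The outcome of that run is not given here and no result rests on it. Genes named were all called ones, the highest of each role, and, from each list, at most 2 with the smallest p in a comparison, chosen among those after their values were seen. No pair of libraries was identical. Alternatives were the values as deposited, a sum of 1000000, quantile normalization, a pseudocount of 0.1, a filter at mean 5 or none, only the compared libraries, the replicate number as a block, and each library left out. For the sums, leaving out libraries was added after seeing the data. Tables and plots were made with numpy 2.4.6, pandas 2.3.3, matplotlib 3.10.9 and Python 3.11.15.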

Additional observations from a re-analysis of the deposited data

How the results depend on the processing

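Of 42 tested genes, Q18 minus K326 had 0 calls in limma under every alternative. YOE minus KY (27 calls) had 16 with a mean of at least 5, where 24 genes were tested, and 22 to 26 with 1 library left out. YOE minus K326 (11) had 26 as deposited, 0 with only the compared libraries, and 7 to 13 with 1 library left out, the 7 without YOE replicate 2 and also without K326 replicate 3. K326 minus KY (21) had 13 as deposited and 14 to 22 with 1 library left out. The cause was not tested beyond the library shift and the smaller fits these settings bring. Nitab4.5_0002936g0040 was -0.64 in YOE minus K326 as deposited, and Nitab4.5_0004741g0010 was 0.0513 in K326 minus KY as deposited, both of the opposite sign on scaled values.

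Summed levels moved with the scaling, given as log2 ratios. As deposited, YOE over K326 was -1.31 for nitrate transport, -1.37 for nitrate reductase, -0.72 for nitrite and sulphite reductase, -1.56 for ammonium transporters, -0.63 for glutamine synthetase and -0.60 for glutamate synthase. K326 over KY was 0.43, -0.52, -0.14, 0.33, -0.14 and -0.36 in that order of classes, Q18 over K326 was 0.17 for nitrate reductase, 0.21 for ammonium transporters and 0.39 for glutamate synthase, and YOE over KY was -0.96 for glutamate synthase. Scaled to a sum of 1000000, K326 over KY was -0.80 for nitrate reductase, 0.0468 for ammonium transporters and -0.65 for glutamate synthase, Q18 over K326 was 0.0454 for ammonium transporters, and YOE over K326 was -0.0827 for glutamate synthase. With quantile normalization, Q18 over K326 was 0.0381 for ammonium transporters, K326 over KY was -0.31 for glutamine synthetase and -0.745 for glutamate synthase, and YOE over K326 was -0.0837 for glutamate synthase.

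Deviations of same-numbered libraries correlated at a median of 0.019 over the 4 comparisons. They correlated at 0.0835, 0.336 and -0.0792 for Q18 and K326 and at 0.109, 0.241 and 0.0171 for K326 and KY. In both of these comparisons the pair of replicate 2 had the highest correlation of all pairs. For YOE and K326 the values were 0.0143, -0.216 and -0.135, and the pair of replicate 2 was the lowest of all pairs. For YOE and KY they were 0.0917, 0.0078 and 0.0204. Whether replicate numbers pair the libraries was therefore not settled. With the replicate block, the calls were 0 for Q18 minus K326, 27 for YOE minus KY, 10 for YOE minus K326 and 21 for K326 minus KY. The block ended the calls of Nitab4.5_0008037g0060 in YOE minus K326 (adjusted p = 0.078 in limma), Nitab4.5_0008594g0010 in YOE minus KY (adjusted p = 0.0558) and Nitab4.5_0000777g0010 in K326 minus KY (adjusted p = 0.0601). It added Nitab4.5_0009217g0020 in YOE minus KY (adjusted p = 0.0438) and in K326 minus KY (adjusted p = 0.0275). Depth per library is unknown, so levels near 0 were not given limits.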
